A study of Homo sapiens with 8 samples.

Results

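The baseline described here is the polyadenylated RNA of control HAP1 cells, taken from the 3 control libraries of a series of 8 libraries (the other libraries are knockdowns of NELFE and NELFB and are not used here). HAP1 is an adherent, near-haploid human cell line derived from KBM-7, a chronic myeloid leukaemia line that carries the BCR-ABL1 fusion. All 3 libraries came from 1 monoclonal derivative, clone SC9, in which a lentiviral construct with an EF1-alpha promoter drives dCas9 fused to the KRAB repressor domain. The cells grew in IMDM with serum and carried a puromycin-selected guide RNA against ADAM22, which the sample labels give as the negative control, and RNA was collected 144 h after transduction. No untransduced cells were among the libraries used here, so the levels below are those of a dCas9-KRAB clone with a guide RNA. The study's methods call the knockdown samples independent biological replicates but, in the sources used here, do not say so of the controls, whose spread may be partly technical. Of the 60725 genes in the count table, 29356 had at least 1 read in a control library, against 33854 in any of the 8 libraries.

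HAP1 cells are widely used for genetic screens because a single hit can inactivate a gene. The parental KBM-7 cells grow in suspension, and the HAP1 line was obtained after retroviral delivery of the reprogramming factors POU5F1 (OCT4), SOX2, KLF4 and MYC. The cells did not become pluripotent, and instead grew attached and lost many blood cell features. Lineage genes are switched on by transcription factors that act in combination, and genes outside the programme of a cell are commonly kept silent by repressive chromatin or by the absence of their activators.

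The libraries held 24444185, 23119332 and 23913330 counted reads (replicates 1 to 3). Levels are given as TPM, counts divided by the exon length of each gene and scaled to the same total in every library, and errors are SD over the 3 libraries. A gene with 3 reads or fewer in every library is described as at the detection floor, since a count of 0 allows up to 3 reads. Values on counting error do not cover other sources of error, because the reads carried no molecular identifiers. The study counted uniquely aligned reads without strand, so genes with near-identical copies are undercounted, and reads from overlapping genes on opposite strands cannot be told apart.

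Replicate 1 stood apart from the other 2 libraries. Among 11364 genes with a mean of at least 100 reads, 90 differed by over 1.5-fold between replicates 2 and 3, 600 between 1 and 2, and 1145 between 1 and 3. The Pearson correlation of log2 CPM (counts scaled to the library total) across these genes was 0.995 for replicates 2 and 3, 0.988 for 1 and 2, and 0.980 for 1 and 3; genes are not independent replicates. Of these genes, 730 were over 1.5-fold higher in replicate 1 than the mean of the other 2 libraries and 84 were lower. Replicate 1 also had the largest share of mitochondrial coding counts, 4.23% against 3.32% and 3.08%. Levels in all 3 libraries are therefore given for the main genes, and a number of list or family members at 1 TPM that changed without replicate 1 is given both ways.

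Of 19586 protein-coding genes, 12067 (61.6%) reached a mean TPM of 1, and 13084 (66.8%) reached the lower minimum of 0.3 used in the study. Without replicate 1 the first number was 11992. At the other end, 3857 coding genes had no read in any of the 3 libraries and 5620 (28.7%) were at the floor. The levels of coding genes had a broad peak around a median of 27.2 TPM among those at 1 TPM or more (quartiles 10.2 and 61.1) and a low shoulder below 1 TPM. Of the expressed coding genes, 7360 (61.0%) lay between 10 and 100 TPM, 1671 between 100 and 1000, and 74 above 1000. Those 74 genes carried 26.8% of all TPM, and 13 of them are encoded in mitochondrial DNA.

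**Figure D1:**
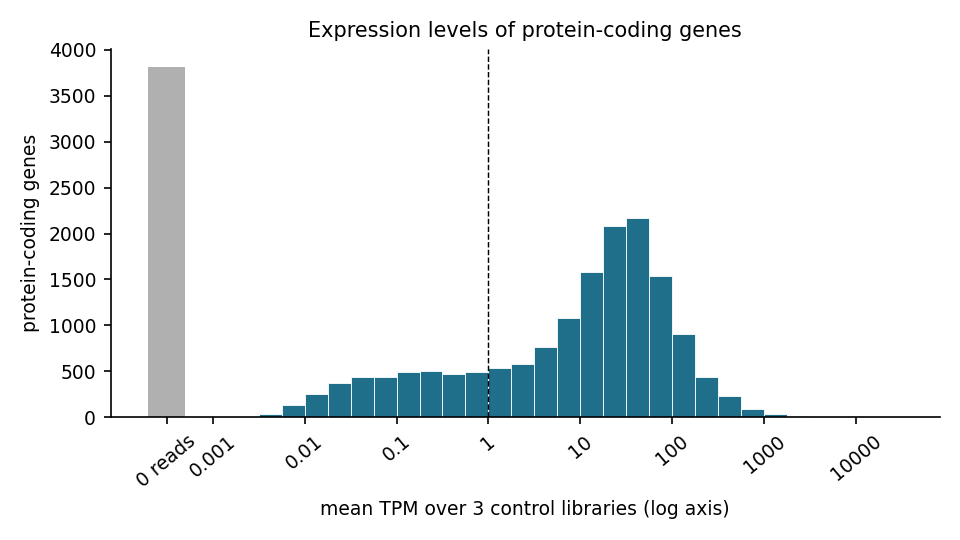
Number of protein-coding genes (y axis) by mean TPM over the 3 control libraries (x axis, log scale). The grey bar holds the 3816 genes with 0 reads outside the Y chromosome, the dashed line marks 1 TPM, and the main peak lies between 10 and 100 TPM.

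Protein-coding genes of the nucleus took 94.4% ± 0.732 of counts. The 13 coding genes of mitochondrial DNA took 3.54% ± 0.604, long noncoding RNA genes 1.12% ± 0.0953 and pseudogenes 0.373% ± 0.0242. By TPM the order of the last 2 classes turned, with 1.66% for long noncoding RNA and 1.94% for pseudogenes. By number, 2336 of 14078 long noncoding RNA genes (16.6%) and 1286 of 14849 pseudogenes (8.66%) reached 1 TPM, well below the share among coding genes. Pseudogene counts are uncertain where a parent gene is nearly identical. The 10 genes with the most reads held 4.28% ± 0.343 of counts, the top 100 held 16.4% ± 0.137 and the top 1000 held 47.2% ± 0.656. It took 1156 ± 40.9 genes to reach 50% of counts and 6172 ± 177 genes to reach 90%. By TPM, which weights short genes more, the top 100 held 30.4%, and 596 genes reached 50%.

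The 25 most abundant nuclear genes included ribosomal proteins, chaperones, glycolytic enzymes and cytoskeletal genes. RPS12, a protein of the small ribosomal subunit, was highest at 4255, 4678 and 4706 TPM in replicates 1 to 3. It was followed by the cytosolic chaperone HSP90AB1 (4219 ± 434 TPM), the translation elongation factor EEF2 (3208 ± 219) and a further HSP90 gene, HSP90AA1 (3059 ± 551). GAPDH (3030.3 ± 349.8) and ENO1 (1817 ± 124) of glycolysis, the cytoskeletal genes ACTG1 (2859 ± 477), ACTB (2766 ± 417) and TUBB (1687 ± 136), the actin-binding TMSB10 (2096 ± 116), and the mitochondrial proteins ATP5F1B (2459 ± 88.7) and SLC25A5 (1877 ± 65.1) were also among the top 25. Of the 24 pairs of neighbours in this order, 19 differed by less than the larger of their SDs, so much of the order is not resolved. RPS12 and HSP90AB1 were such a pair, while HSP90AB1 exceeded EEF2 by more than the SD of either.

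PEG10 was an unusual member of this group. It is an imprinted gene derived from a retrotransposon and best known from placenta, and it had 2316, 3157 and 3511 TPM in the 3 libraries. Those levels placed it beside GAPDH and the cytoplasmic actins. TPTEP1, annotated as a pseudogene, was listed at 2248 ± 119 TPM, but its exons in the annotation used for lengths span 213 bases, so its level per length is uncertain. All 25 top genes were also the top 25 without replicate 1, and 19 of them were so when the longest transcript replaced the union of exons.

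Among the 100 highest nuclear coding genes, 34 encode cytosolic ribosomal proteins, 5 encode subunits of respiratory complexes or ATP synthase and 2 encode translation initiation factors. As a family, 82 of 84 cytosolic ribosomal protein genes reached 1 TPM, with a median of 572 TPM, against 61.8% of all coding genes outside the Y chromosome. Their median coefficient of variation (CV) over the 3 libraries was 3.51%, compared with 8.47% for all genes with a mean of 100 reads. Part of this gap goes with read depth, since the median CV was 6.17% for genes with 3000 to 10000 reads and 5.79% above 10000. The ribosomal median was also below these 2 values. Mitochondrial ribosomal proteins (77 of 78 at 1 TPM, highest MRPL51) and proteasome subunits (36 of 39, highest PSMA7) were likewise nearly complete. So were genes of complexes I to V (99 of 107, 98 without replicate 1) and of translation initiation (52 of 55, highest EIF4G2). These families were drawn by gene symbol, so the last 2 may also hold assembly factors or regulators.

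Per length, the 13 coding genes of mitochondrial DNA, which encode subunits of the respiratory chain, all lay above RPS12, the highest nuclear gene of the top 25. The lowest of them was MT-ND6 (6476 ± 968 TPM). MT-CO3, a subunit of cytochrome c oxidase, had 26365, 22143 and 19662 TPM, MT-ND4 of complex I had 25493, 19485 and 18268 and MT-CO1 had 16642, 11388 and 9677. All 3 were highest in replicate 1. MT-ND1 (9902, 10269 and 9289) and MT-ND2 (8199, 8215 and 7839) did not share this order, and the ribosomal RNA MT-RNR2 varied little (8284, 8757 and 8566). The 13 mitochondrial coding genes together took 16.1% of all TPM but 3.54% of counts, since TPM divides by their short lengths.

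Many messages of the translation machinery begin with a run of pyrimidines at the first transcribed base, the terminal oligopyrimidine tract, which is background for the short motifs searched here. The letters CTTTT were looked for within 20 bases on either side of the RefSeq start (GRCh38.p14), as were the letters CTTCC and, likewise, the letters CTCTT. The 3 motifs can share letters, and a window counts if it holds any. A RefSeq window was found for 15197 of 18853 nuclear coding genes considered (80.6%). Of these windows, 17.2% held a motif on the transcribed strand, and 14.5% on the opposite strand. Of 67 ribosomal protein genes with a window, 41 (61.2%) held one on the transcribed strand and 13.4% on the opposite strand. Of 84 windows of the 100 highest coding genes, 27 (32.1%) held one on the transcribed strand and 14.3% on the opposite strand. Many of those genes encode ribosomal proteins, and the share without them was not computed. The starts of 7 genes, RPS12 to EEF1A1 of translation and 2 others, are shown, from 14 bases before to 16 after the start, with the motifs in capitals, overlapping ones included. RPS4X, GAPDH and HSP90AB1 held none in the stretch shown. The GAPDH stretch lies inside the gene, at a downstream start, and the HSP90AB1 stretch begins shortly after the annotated start of that gene. The first annotated starts of GAPDH and HSP90AB1 are therefore not shown.
RPS12: cgtgcggatgaggcCTCTTtccctgccgcc
RPS18: gcgtcaCTTCCgctctCTCTTCCacaggag
RPS4X: cagtctccagccccaatttctacgcgcacc
EEF2: ttgacgtcagcgttCTCTTCCgccgtcgtc
EEF1A1: tcgccgtgaacgttCTTTTtcgcaacgggt
GAPDH: gcgggtgcatccctgtccggatgctgcgcc
HSP90AB1: cccgcaggtactccactctcagtctgcaaa

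In GRCh38.p14 these windows are RPS12 at chr6:132814555-132814584 (+ strand), RPS18 at chr6:33272061-33272090 (+ strand), RPS4X at chrX:72277233-72277262 (- strand), EEF2 at chr19:3985448-3985477 (- strand). The others are EEF1A1 at chr6:73521017-73521046 (- strand), GAPDH at chr12:6535250-6535279 (+ strand), HSP90AB1 at chr6:44246180-44246209 (+ strand). The motif search describes letters and does not identify bound factors.

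No lineage list was present as a whole. Some pluripotency, neural and mesenchymal genes were high, and most blood, endoderm and germline markers were at or near 0. The lists were compared with the 61.8% of coding genes at 1 TPM or more and the 28.5% at the floor outside the Y chromosome. In bulk RNA, fewer cells of a type and less RNA per cell cannot be told apart.

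Of the haematopoietic markers, 9 of 40 reached 1 TPM (22.5%) and 24 of 40 were at the floor. PTPRC (CD45, the pan-leukocyte phosphatase) had 0, 1 and 1 reads, and SPI1 (PU.1, the myeloid and B cell master regulator) had 0 reads in every library. GATA1, the erythroid factor, had 4, 0 and 0 reads. The progenitor marker CD34 had 3, 3 and 1 reads, the myeloid CD33 had 1, 5 and 3, and MPO of granules had 0. Against this, some early blood transcription factors were among the 9 members at 1 TPM. TAL1 had 42.3 ± 1.71 TPM, GATA2 had 36.8, 39.1 and 41.9, and MYB had 13.1, 10.8 and 8.15. Not all blood transcription factors of the list are reported here, and most members of the list were under 1 TPM. RUNX1 was close to the threshold (1.16 ± 0.223 TPM), whereas its paralogue RUNX3 had 24.9 ± 1.39. CEBPA (6.58 ± 0.0685) and the receptor KIT (3.73 ± 0.245) were low. The summed level of the list was 123, 117 and 114 TPM.

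The fusion partners themselves were transcribed at modest levels. BCR had 7.05, 7.09 and 7.09 TPM and ABL1 had 10.9, 14.2 and 11.1, and gene counts cannot separate the fusion from the normal transcripts. CRKL, an adaptor that is a substrate of the BCR-ABL1 kinase, had 178 ± 16.6 TPM, and GRB2 had 136 ± 10.9. In all, 15 of 16 genes of this list reached 1 TPM.

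Pluripotency markers split sharply. SOX2 had 1723, 1039.6 and 851 TPM in replicates 1 to 3 and POU5F1 had 1099, 691 and 519.7. NANOG, which works with both in pluripotent cells, had 0, 0 and 1 reads, and ZFP42 (REX1) had 0. DPPA4 (211 ± 3.79 TPM), TFAP2C (83.8 ± 1.96) and LIN28B (66.1 ± 5.51) were high, while LIN28A (2.41 ± 0.661) and TDGF1 (3.76 ± 0.655) were low. In total 9 of 20 members reached 1 TPM and 8 were at the floor. DNMT3L, a cofactor of de novo methylation that marks germ and pluripotent cells, had 0 reads.

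The 4 reprogramming factors used to make the line varied together between the libraries. POU5F1 was 2.20 times as high in replicate 1 as in replicate 3 by CPM, SOX2 2.10 times and MYC 2.04 times. MYC, the growth-promoting transcription factor, had 853, 587 and 435 TPM. KLF4 was low, with 4.25, 3.11 and 2.17 CPM, and its ratio was 1.96. The CV of KLF4, 32.7%, was under the 90th percentile of 44.4% for genes with 30 to 100 reads, so a spread of this size was not rare at its depth. For each of the 4 factors replicate 2 lay between the others. Of the 5 pluripotency markers with a mean of at least 100 reads, those other than POU5F1 and SOX2 did not follow. The same ratio was 1.01 for DPPA4, 0.992 for TFAP2C and 0.886 for LIN28B. OTX2, of the neural list, had 1.02. Apart from KLF4, the ratio is not given for pluripotency markers with fewer reads. Of 297 nuclear genes with a mean of at least 10000 reads, 9 (3.03%) differed by over 1.5-fold between replicates 1 and 3, and the 3 with the largest excess in replicate 1 were POU5F1, SOX2 and MYC. Across the 11364 genes with 100 reads or more, 1.74% had a ratio at or above that of MYC. Without replicate 1 the mean was 945 TPM for SOX2, 605 for POU5F1 and 511 for MYC. Counts per gene cannot tell a delivered cDNA from the endogenous gene, and which copy the reads came from was not tested. This grouping was chosen after the values were seen.

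**Figure D2:**
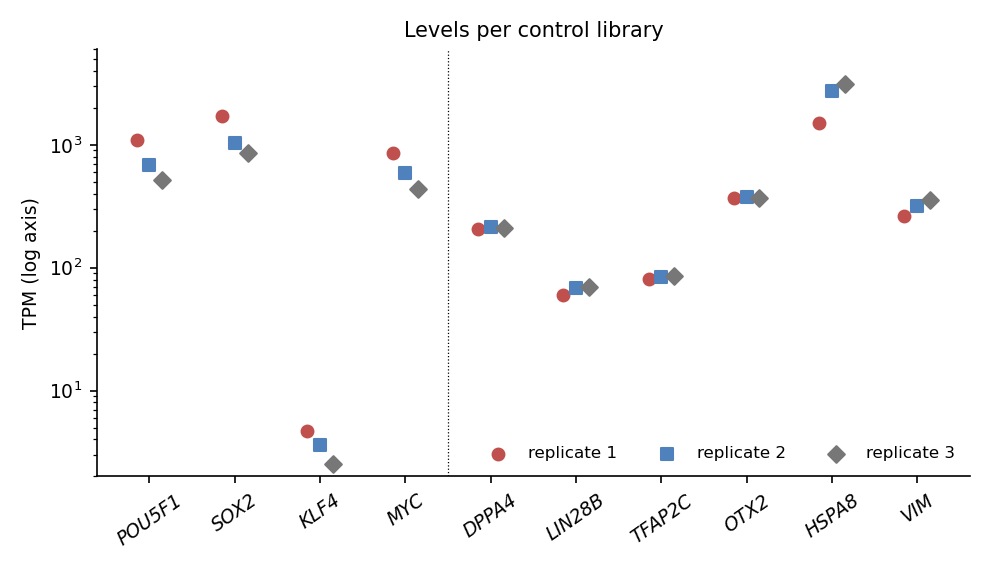
TPM (y axis, log scale) of the 4 reprogramming factors (left of the dotted line) and of 6 other genes (right) in each control library; each symbol is 1 library. POU5F1, SOX2, KLF4 and MYC were highest in replicate 1 and lowest in replicate 3, HSPA8 and VIM had the opposite order, and DPPA4, TFAP2C and OTX2 barely moved.

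Neural markers were present in part. OTX2, a homeobox factor of the forebrain and of primed pluripotent cells, had 368, 376 and 373 TPM, and the neural progenitor filament NES had 135, 109.6 and 115. NEUROG2 (29.9 ± 4.14 TPM), OLIG2 (16.6 ± 4.04) and PAX6 (5.54 ± 0.505) were lower. The early neural factor SOX1 had 0, 1 and 0 reads, the astrocyte filament GFAP had 2, 2 and 3, and the migrating-neuron gene DCX had 14, 8 and 3. The synaptic vesicle protein SYP had 4.21 ± 0.807 TPM and the neuronal MAP2 5.04 ± 1.67. Of the list, 12 of 26 reached 1 TPM (46.2%), and 10 were at the floor.

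Mesenchymal and epithelial markers were both present in part. VIM, the mesenchymal intermediate filament, had 262, 315 and 356 TPM. N-cadherin (CDH2) had 58.2, 70.9 and 66.8 TPM, whereas E-cadherin (CDH1) had 0 reads in every library and EPCAM had 7, 4 and 3 reads. SPARC (132 ± 11.5 TPM), PDGFRA (52.8 ± 3.64) and the repressor of epithelial genes ZEB1 (29.8 ± 1.76) were present, with FN1 (13.6 ± 1.28) and COL1A1 (10.4 ± 2.78) lower. In total 14 of 26 mesenchymal markers (53.8%) and 10 of 28 epithelial ones (35.7%) reached 1 TPM, below the 61.8% of all coding genes, while 8 of each list were at the floor. The epithelial members that were present included the junction genes TJP1 (52.4 ± 3.64 TPM) and DSP (51.9 ± 6.61) and the keratin KRT18 (38.5 ± 1.18). SPINT1 had 46.8, 34.5 and 28.2 TPM, highest in replicate 1, and the epithelial members with enough reads were in the median 0.26 log2 units above their mean over the libraries in that replicate.

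The other lineage lists were each led by 1 or a few members, and their shares at 1 TPM ran from 10.0% (endoderm and liver) to 30.0% (trophoblast). FOXA1 (39.6 ± 6.44 TPM) and CDX2 (9.70 ± 0.885) were the members of the endoderm and liver list at 1 TPM, of 20, and SOX17, FOXA2, AFP and ALB had no reads. TBX5, a T-box factor of heart and forelimb, had 60.4, 50.9 and 40.8 TPM, but TBXT had 1, 0 and 0 reads, and MYOD1, TNNT2 and NKX2-5 had 0. EGFL7 (25.2, 15.4 and 11.8 TPM) led the endothelial list, in which PECAM1 had 0, 0 and 1 reads and CDH5 had 0. DAZL, an RNA-binding protein of germ cells, had 76.2, 64.7 and 46.7 TPM and 94.8% of the summed level of the germline list, while DDX4 had 0, 1 and 1 reads and MAGEA4 had 0. STAG3 (1.23 ± 0.496 TPM) and PRAME (1.10 ± 0.616) were near the threshold, and without replicate 1 the germline list had 1 member at 1 TPM instead of 3. The trophoblast list had 3 members at 1 TPM, with HLA-G highest (7.42 ± 0.392 TPM). HLA-G reads may be shared with other class I genes.

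**Figure D3:**
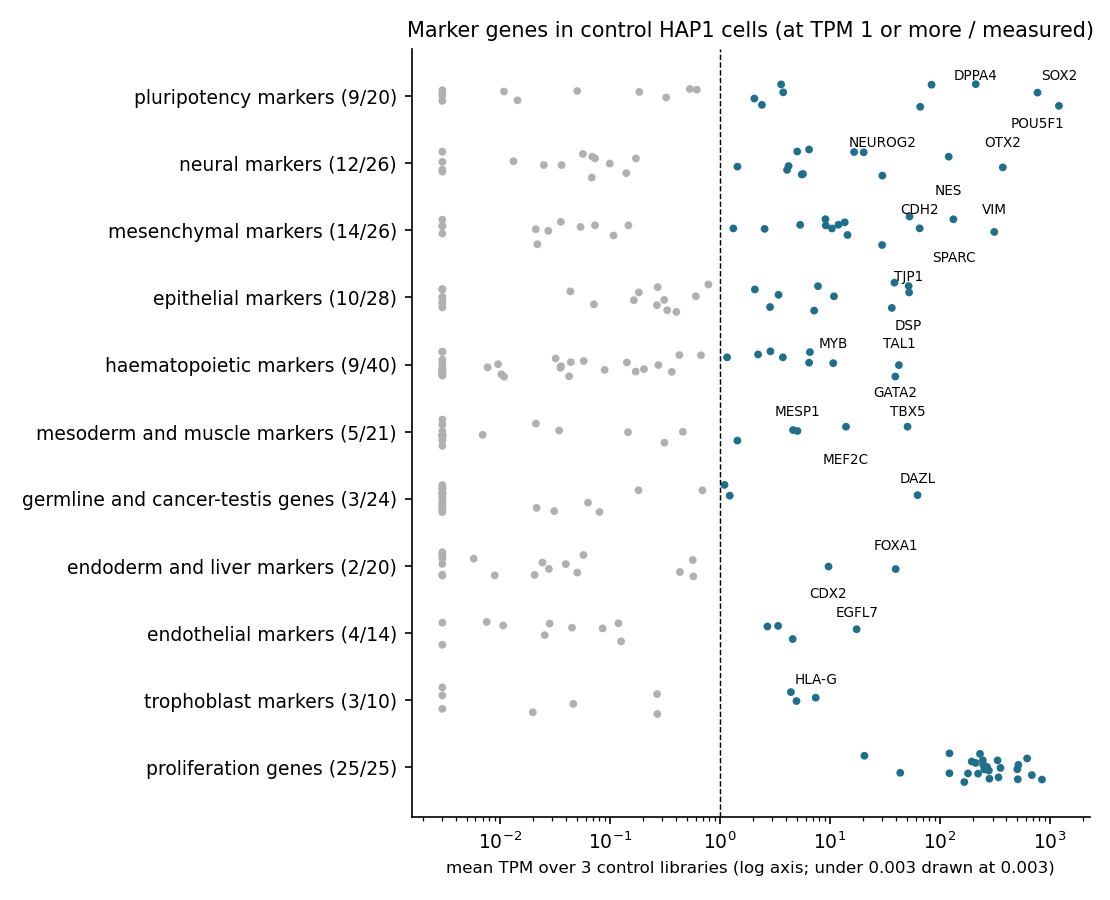
Mean TPM over the 3 control libraries (x axis, log scale) of every measured member of 10 lineage lists and of the proliferation list (rows); each point is 1 gene, blue at 1 TPM or more and grey below, and the dashed line marks 1 TPM. All 25 proliferation genes lie to the right of the line, while 9 of 40 haematopoietic and 2 of 20 endoderm and liver markers do; the highest genes of each lineage list at 5 TPM or more are named.

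HOX genes, which give position along the body axis and are arranged in 4 clusters, reached 1 TPM in 26 of 39 cases (66.7%, or 24 and 61.5% without replicate 1), a share close to the 61.8% of all coding genes. Cluster A had 11 of 11 and cluster C 7 of 9, or 10 and 6 without replicate 1, because HOXA4 and HOXC4 were then under the threshold. Cluster B had 5 of 10 and cluster D 3 of 9. HOXA13 was highest (111, 109.5 and 92.9 TPM), followed by HOXA9 (83.4, 75.7 and 80.1), a gene known for its role in myeloid leukaemia. The group-13 genes at the posterior end of the other clusters were also present: HOXB13 had 26.5 ± 2.87 TPM, HOXC13 21.4 ± 3.94 and HOXD13 15.5 ± 0.848. Within cluster D the interval between HOXD13 and HOXD8 (16.1 ± 0.929) was nearly empty, with 4, 2 and 2 reads for HOXD9 and with HOXD10, HOXD11 and HOXD12 at the floor. In cluster B, HOXB4 (26.0 ± 3.29 TPM) and HOXB9 (3.58 ± 0.680) flanked a stretch of low genes, in which HOXB5 had 0.402 ± 0.181 TPM, HOXB6 had 0.554 ± 0.213, and HOXB7 and HOXB8 were at the floor.

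Genes of cell division were all transcribed. The 25 proliferation genes each reached 1 TPM, with a median of 253 TPM. PCNA, the replication clamp, had 752, 854 and 928 TPM, TOP2A had 702, 706 and 643 and cyclin B1 (CCNB1) had 539.9, 666 and 650.2. The proliferation marker MKI67 had 247 ± 7.12 TPM. Tumour suppressors were transcribed throughout (17 of 17), including RB1 (122 ± 13.3 TPM), VHL (108 ± 6.30) and CDKN2A (39.0 ± 3.53). CDKN2B was the lowest of them at 3.20 ± 0.267. A transcript level says nothing of mutation or of protein function. The cell cycle inhibitor CDKN1A (p21) had 10.6, 15.1 and 7.65 TPM. Among BCL2 family members MCL1 (156 ± 20.3 TPM) and BCL2L1 (49.4 ± 10.3) exceeded BCL2 (11.0 ± 0.803).

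Interferon and inflammatory genes reached 1 TPM in 11 of 27 cases (40.7%), below the 61.8% of all coding genes. IFNB1 had 0 reads and 13 of 27 interferon and inflammatory genes were at the floor, yet BST2 (tetherin) had 539.9, 526 and 509 TPM, 81.5% of the summed level of that list. ISG15 (18.6 ± 0.561 TPM) and IFIT1 (10.4 ± 0.864) were low. Class I antigen presentation genes were present, with B2M at 356 ± 15.8 TPM, HLA-B at 104 ± 16.3 and HLA-C at 76.3 ± 9.67, while 6 of the 19 antigen presentation genes were at the floor and 11 (57.9%) reached 1 TPM, close to the share of all coding genes. Read assignment between the HLA class I genes is uncertain, since they are similar. CA9, a strong hypoxia target, had 0 reads, and BNIP3L (85.3, 66.4 and 55.2 TPM), highest in replicate 1, led the hypoxia list (11 of 15 at 1 TPM).

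In the WNT list 30 of 35 (85.7%) reached 1 TPM, including the receptor LGR4 (223 ± 18.1 TPM), the coactivator CTNNB1 (151 ± 9.88) and the coreceptor LRP6 (105 ± 0.648). Of 58 receptor tyrosine kinases, 36 did so (62.1%, near the 61.8% of all coding genes; 35 without replicate 1), led by FGFR1 (82.6 ± 5.58 TPM), PDGFRA and PTK7 (48.0 ± 6.65), whereas EGFR was at 0.305 ± 0.0697 TPM. DNMT1 (99.7 ± 5.74) and its partner UHRF1 (92.7 ± 7.54) exceeded the de novo enzymes DNMT3B (26.4 ± 3.19) and DNMT3A (7.23 ± 1.18), and TET1 (47.6 ± 7.70) was the highest of the demethylating enzymes. ADAM22, the target of the control guide RNA, had 4.16, 3.87 and 3.31 TPM. There is no untargeted reference for it among the libraries used here.

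Closely related genes were used unequally. Of the set's TPM, the percentage in the leading member is given below with its SD. ALDOA held 99.2% ± 0.286 of aldolase and ENO1 90.1% ± 1.37 of enolase, the forms found in most dividing cells. CKB, the brain form of creatine kinase, had 399.7 TPM and 97.4% ± 0.234 of its set, and UCHL1, an abundant neuronal deubiquitinase, had 668 TPM and 88.3% ± 0.437. LDHB (1779.8, 1897 and 1939 TPM) exceeded LDHA (699, 816 and 859.8) in every library, and took 70.3% ± 1.27 of lactate dehydrogenase. TMSB10 took 81.2% ± 0.397 of the thymosin beta set, with TMSB4X at 9.95% ± 1.28. EEF1A2, the elongation factor form of brain and muscle, had 400.0 TPM and took 19.5% ± 0.718 beside EEF1A1. The main GATA, RUNX and D-type cyclin genes were GATA2 (88.2% ± 5.34), RUNX3 (94.6% ± 0.511) and CCND3 (74.7% ± 2.99).

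Some orders could not be settled. HK1 took 48.8% ± 4.29 and HK2 51.2% ± 4.33 of hexokinase, and ACTG1 took 50.5% ± 0.591 and ACTB 49.0% ± 0.702 of actin; both orders turned when the longest transcript gave the length. FTL took 94.7% ± 0.796 of ferritin, with FTH1 at 5.28% ± 0.796, but FTH1 has many processed pseudogenes, and reads that fit several places were not counted. The same limit applies to EEF1A1, the ribosomal proteins and the tubulins, and may apply to TMSB4X of the thymosin beta set. Lengths also moved shares that kept their leader: with the longest transcript EEF1A1 took 87.0%, LDHB 63.1% and CCND3 86.0%.

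The most abundant long noncoding RNAs were hosts of small nucleolar RNAs, which guide modification of ribosomal RNA. SNHG1 had 389, 420.0 and 410.2 TPM, GAS5 271, 281 and 290.3, SNHG3 245 ± 17.7, SNHG32 239.7 ± 15.7 and SNHG29 212 ± 1.83. NORAD (196 ± 13.8 TPM), which binds Pumilio proteins, and the nuclear MALAT1 (129 ± 11.1) followed, and PRR11-AS1 (118 ± 9.79), SNHG19 (117 ± 15.3) and FGD5-AS1 (115 ± 5.69) completed the 10 highest. NEAT1, the scaffold of paraspeckles, had 124, 95.0 and 79.7 TPM, highest in replicate 1. The imprinted H19 (2.06 ± 0.233 TPM) and MEG3 (0.176 ± 0.0836) were near or under the threshold.

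Several large families were silent almost without exception. Of 410 olfactory receptors, 406 were at the floor and 393 had 0 reads, and OR2W3 (9.16 TPM) alone reached 1 TPM. All 94 keratin-associated proteins were at the floor. All 18 late cornified envelope genes and all 13 interferon alpha genes had 0 reads in the 3 libraries. Among 55 keratins 51 were at the floor, and KRT18, KRT10 and KRT8 reached 1 TPM. MAGE genes of the A, B and C subfamilies (25 of 26 at the floor), UDP-glucuronosyltransferases (18 of 19) and beta defensins (39 of 40) were at the floor apart from 1 gene each. Other MAGE subfamilies were not counted. That gene of the beta defensins was DEFB131B at 7.29 TPM, a level that rests on 13 reads or fewer in each library and is imprecise. Interleukins (33 of 38) and chemokines (36 of 44, or 39 without replicate 1) had a few transcribed members, such as CXCL16 (33.4 ± 5.21 TPM).

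Transcription factor families varied in the share of members transcribed, beside the 61.8% of all coding genes outside the Y chromosome at 1 TPM. Of 508 ZNF genes, 394 (77.6%) reached 1 TPM, with a median of 9.58 TPM over all members, against 7.26 TPM over all coding genes, and ZNF711 on the X chromosome was highest (308 TPM). The shares were 57.9% for SOX (11 of 19), 53.8% for FOX (28 of 52) and 72.2% for KLF factors (13 of 18), and were not tested against that of all coding genes. SOX2, FOXM1 (179.7 TPM) and KLF5 (78.6) led these 3 families. FOXM1 held 26.3% of the summed FOX level. Among structural genes, COL2A1, the fibrillar collagen of cartilage, was the highest collagen at 249, 209.9 and 181 TPM, and 17 of 44 collagens reached 1 TPM. CDH6 (43.9, 74.1 and 90.7 TPM, lowest in replicate 1) and CDH2 led the cadherins, of which 4 of 23 reached 1 TPM. Clustered protocadherins were sparse by these counts: 10 of 53 reached 1 TPM and 20 were at the floor, with the rest between, so that a threshold of 0.3 TPM gave 22. Exons shared between members could lower their counts, which was not tested.

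Other developmental factors were unevenly represented, beside the 61.8% of all coding genes outside the Y chromosome at 1 TPM. These families are small, and none was tested against that share. Of 15 POU factors 8 (53.3%) reached 1 TPM. POU5F1 held 87.0% of the summed level of the POU factors, as SOX2 held 82.0% of that of the SOX factors. LIM-homeobox factors (8 of 12, highest ISL2 at 29.5 TPM), SIX3 and its relatives (5 of 6, SIX3 at 49.6), T-box factors (7 of 16, or 6 without replicate 1), PAX factors (4 of 9, highest PAX8 at 6.92) and IRX factors (3 of 6, highest IRX3 at 12.5) were each transcribed in part. MYC held 97.2% of the summed TPM of its family of 3.

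Families of secreted signals and channels had smaller shares at 1 TPM than the 61.8% of all coding genes. FGF2 (30.1 TPM) held 68.9% of the summed level of the FGF ligands (4 of 22 at 1 TPM, or 3 without replicate 1), WNT5A (17.3) led the WNT ligands (8 of 19, or 7) and GDF11 (44.6) the BMP and GDF ligands (7 of 22). At the floor were 10, 7 and 10 members of these families. SCN9A, a sodium channel of sensory neurons, had 17.7 TPM and GABRA5, a GABA receptor subunit, had 17.6. Of 95 potassium channels 28 reached 1 TPM (27 without replicate 1) and 44 were at the floor, with KCNS3 highest at 42.7. CYP26B1 (21.2 TPM), which breaks down retinoic acid, was the highest of 56 cytochromes P450, of which 14 reached 1 TPM (13 without replicate 1). Of 340 solute carriers 197 did so (196 without replicate 1), which is 57.9% and near the 61.8% of all coding genes. The mitochondrial ADP/ATP carrier SLC25A5 was the highest of them.

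Structural and matrix genes were led by a few abundant members. The nuclear lamins LMNB1 (455 ± 41.1 TPM) and LMNB2 (260.4 ± 19.6) exceeded LMNA (68.7 ± 4.29). Of 18 intermediate filament genes 11 reached 1 TPM (61.1%, near the 61.8% of all coding genes). S100A10 (467 TPM) held 67.1% of the S100 proteins and SERPINH1, the collagen chaperone, 50.8% of the serpins by summed TPM, and LAMC1 (122 TPM) was the highest laminin. Of 25 integrins 14 (56.0%, near the 61.8% of all coding genes) reached 1 TPM, with ITGB1 highest at 60.2. The 25 housekeeping reference genes each reached 1 TPM, with a median of 258 TPM.

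**Figure D4:**
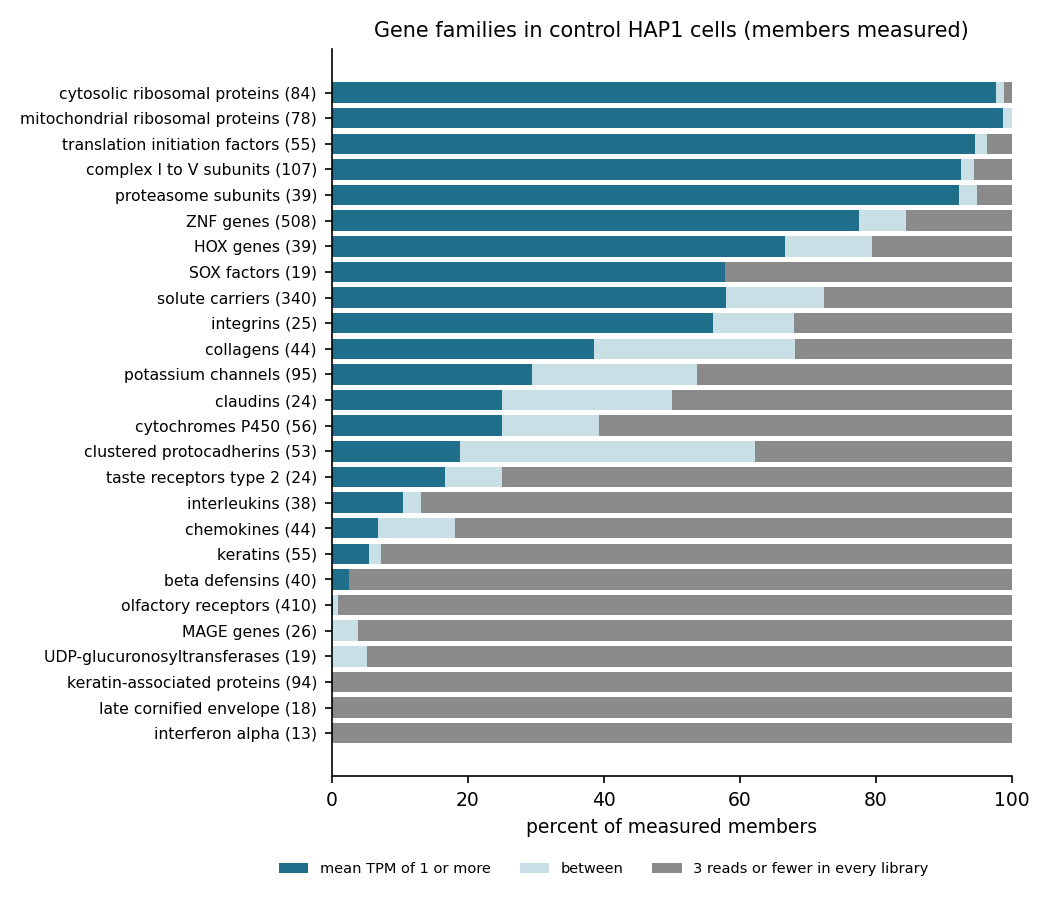
Percentage of the measured members of 26 gene families (rows, number of members in brackets) at a mean TPM of 1 or more (dark), with 3 reads or fewer in every library (grey) and between (light). Families of translation and respiration are almost fully dark, and olfactory receptors, keratin-associated proteins, late cornified envelope and interferon alpha genes almost fully grey. The row of MAGE genes holds the A, B and C subfamilies only.

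Genes with CpG-rich promoters were far more often transcribed than those with CpG-poor ones. Most human promoters are rich in CpG dinucleotides, while many tissue-specific genes have CpG-poor promoters. The CpG ratio is the number of CpG in the RefSeq window (250 bases before to 50 after the start) over the number its C and G content would give. Of 10143 coding genes with a ratio above 0.6, 82.9% reached 1 TPM and 10.2% were at the floor. Of 1863 genes with a ratio of 0.2 or less, 16.3% reached 1 TPM and 72.0% were at the floor. The median ratio was 0.777 for genes between 1 and 10 TPM and 0.887 between 100 and 1000 TPM. For genes at the floor 73.0% had a window, under the 80% set as the minimum, so their median is not given. The 80 keratin-associated proteins with a window had a median ratio of 0.178, and 42.5% held TATAAA 40 to 20 bases before the start on the transcribed strand and 0% on the opposite strand, against 3.61% and 0.665% of all windows. The 100 bases before the RefSeq start are shown for 4 expressed genes (PCNA at 845 TPM, GAPDH, OTX2 and DPPA4), with CpG in capitals. They are also shown for 2 genes at the floor (PTPRC, and LCE1A of the cornified envelope). The GAPDH stretch lies inside the gene, before a downstream start, so it is not the sequence before the first start of GAPDH.
PCNA: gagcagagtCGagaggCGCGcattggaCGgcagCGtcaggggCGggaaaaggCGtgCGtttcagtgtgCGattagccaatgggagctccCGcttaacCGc
GAPDH: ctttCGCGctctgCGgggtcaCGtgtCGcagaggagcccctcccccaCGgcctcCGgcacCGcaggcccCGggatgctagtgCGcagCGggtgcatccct
OTX2: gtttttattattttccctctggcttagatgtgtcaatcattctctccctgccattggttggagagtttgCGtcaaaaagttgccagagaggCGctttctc
DPPA4: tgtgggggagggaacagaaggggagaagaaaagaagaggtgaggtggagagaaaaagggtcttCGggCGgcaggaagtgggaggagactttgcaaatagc
PTPRC: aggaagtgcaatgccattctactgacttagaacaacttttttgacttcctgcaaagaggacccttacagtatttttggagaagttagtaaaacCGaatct
LCE1A: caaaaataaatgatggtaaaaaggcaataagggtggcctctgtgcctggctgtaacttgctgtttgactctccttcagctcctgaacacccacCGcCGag

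These lie at chr20:5126623-5126722 (- strand, PCNA), chr12:6535164-6535263 (+ strand, GAPDH), chr14:56810480-56810579 (- strand, OTX2), chr3:109337547-109337646 (- strand, DPPA4), chr1:198638940-198639039 (+ strand, PTPRC), chr1:152827373-152827472 (+ strand, LCE1A) of GRCh38.p14. They hold 11 CpG for PCNA, 11 for GAPDH, 2 each for OTX2 and DPPA4, 1 for PTPRC and 2 for LCE1A. OTX2 and DPPA4 were thus expressed with few CpG in this stretch, and their window ratios were 0.493 and 0.355. Other genes at the floor had window ratios near these, 0.481 for ALB, 0.323 for NANOG and 0.301 for KRT5, and PTPRC and LCE1A had lower ones, 0.122 and 0.158. The genes were chosen after their levels were known, and the association is across genes of 1 cell line.

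The autosomes and the X chromosome differed in their share of transcribed genes; the Y chromosome is not described. The share of coding genes at 1 TPM ranged from 46.8% on chromosome 21 to 68.1% on chromosomes 13 and 22. Chromosome 11, which holds many olfactory receptors, had 53.2%. The X chromosome had 53.8% of its coding genes at 1 TPM, below most autosomes, but those genes had the highest median, 38.1 TPM. The lowest median was on chromosome 19, at 19.9 TPM.

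Spread between the libraries fell with depth but stayed above counting error. Genes with 100 to 300 reads had a median CV of 15.4%, where counting error alone gives 7.39%, and genes with over 10000 reads had 5.79%, where it gives 0.805%. The biological CV from edgeR's common dispersion was 12.9% over 14829 genes, and 6.23% for replicates 2 and 3 alone. A CV over 20% was seen in 1446 of 11364 genes (12.7%) and over 50% in 53 (0.466%).

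**Figure D5:**
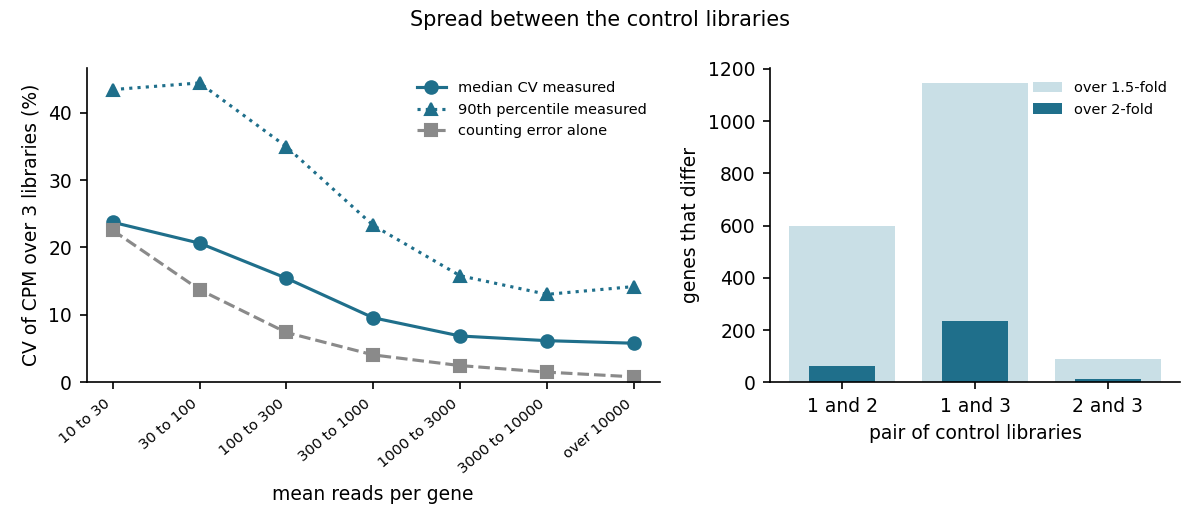
Left, CV of CPM over the 3 control libraries (y axis, percent) by mean reads per gene (x axis): median and 90th percentile as measured, and the median from counting error alone. Right, number of genes with a mean of at least 100 reads that differed by over 1.5-fold or 2-fold in each pair of libraries (y axis), which was 1145 and 236 for replicates 1 and 3 and 90 and 11 for replicates 2 and 3.

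The most variable gene was NGFR, the low-affinity neurotrophin receptor, with 8.71, 2.72 and 1.09 CPM in replicates 1 to 3. The small heat shock protein CRYAB went the other way, with 0.450, 4.46 and 9.45 CPM. The immediate early gene EGR1, which responds within minutes to growth signals, was highest in replicate 2 (19.1, 58.6 and 8.95 CPM). YPEL3, OLFML2A, ABTB1, SH3BP2, PPP1R16B, CACNA1H and GIPR completed the 10 genes of largest CV among those with a mean of 100 reads, and all 7 were highest in replicate 1. Among genes singled out by their distance from the other libraries, THBS1, the matrix protein thrombospondin, had 13.1, 28.7 and 36.5 CPM, and the annexin ANXA1 had 21.5, 21.1 and 47.0, highest in replicate 3.

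Of the 9 abundant nuclear genes that differed by over 1.5-fold between replicates 1 and 3, chosen here after their values were seen, 5 were higher in replicate 3. The cytosolic HSP70 gene HSPA8 had 1515, 2759.8 and 3139 TPM, its cochaperone DNAJA1 had 292, 489.7 and 580.5 CPM and HSPH1 had 376, 555 and 686 CPM. These 3 genes, EIF4G2 (1423, 1948 and 2202 CPM) and the transferrin receptor TFRC (332, 519.5 and 499 CPM) made up these 5. NEAT1, with POU5F1, SOX2 and MYC, made up the 4 that were over 1.5-fold higher in replicate 1. Median log2 deviations in replicate 1 were 0.29 for collagens, 0.23 for receptor tyrosine kinases and 0.24 for mitochondrial coding genes, and -0.12 for proteasome subunits and -0.11 for proliferation genes, beside 0.03 over all genes. RNA quality and culture density were not measured in the files used here, and their part in these differences was not tested.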

How the data were processed

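Polyadenylated RNA of 3 control libraries was sequenced as 65-base single-end reads. The authors aligned the reads with STAR 2.5.4a to GRCh38 and deposited counts of uniquely aligned reads per Gencode v24 gene, not split by strand; read quality had been checked with FastQC 0.11.6. The deposited table holds raw counts of 60725 genes in 8 libraries. Every column matched a sample (0 unmatched), and the 5 columns of the knockdown groups were used only to count genes with a read. Depth was 23119332 to 24444185 counts per library.

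GENCODE 44, joined by gene identifier, supplied the symbol, type and exon length of genes with 99.9% of counts. TPM was computed from counts and the union of exons over all matched genes, and CPM from library totals. Because the lengths are of a later annotation than the counts, TPM of genes whose models changed is approximate. The threshold was a mean TPM of 1, the floor 3 reads or fewer in every library, and the spread was measured on genes with a mean of 100 reads. The common dispersion was estimated with edgeR 4.0.16 (TMM, genes with 10 reads in every library) in R 4.3.3. The estimate had first been checked on simulated counts of known dispersion. DESeq2 1.42.0 gave alternative size factors. Other steps used Python 3.11.15, pandas 2.3.3, numpy 2.4.6 and matplotlib 3.10.9. Promoter windows came from RefSeq (GRCh38.p14), without chromosome 8.

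No groups were compared, so no test between groups was made. The members and gene lists were chosen with earlier results of these data known. Named genes were the 25 highest nuclear genes with exons of 200 bases or more, the defining and highest genes of each list, every printed member of the paralogue sets, the highest members of each family, the 10 highest long noncoding RNAs, the 10 genes of largest CV, the 5 genes by which each library lay farthest from the others in either direction, and ADAM22. The reprogramming factor set, the abundant genes that differed between libraries and single members outside this rule were chosen after their values were seen. Alternatives were leaving out each library, the longest transcript as length, TPM without mitochondrial genes, other thresholds, TPM in place of counts, and other normalizations and filters for the spread. Some members of the lists are not reported here.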

Additional observations from a re-analysis of the deposited data

How the results depend on the processing

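Leaving out each library in turn left 154 of 156 results within 1.5 times their count or within the spread. The exceptions were these. Genes of the germline list at 1 TPM numbered 1 to 3, the lowest without replicate 1. The biological CV ranged from 6.23% without replicate 1 to 17.3% without replicate 2. The share of HK2 in hexokinase ranged from 49.7% to 53.6%, and that of CAV1 in caveolin from 47.2% to 55.7%, with the lead passing to HK1 without replicate 2 and to CAV2 without replicate 3. Longest transcripts as lengths kept 86 of 103 results; the lead passed to another member for HK2 (39.1%), CAV1 (42.7%) and ACTG1 (49.0%). TPM without mitochondrial genes kept 103 of 103. With a threshold of 0.3 TPM 66 of 76 kept, and the others were endoderm and liver markers (5), olfactory receptors (3), type 2 taste receptors (7), chemokines (6), clustered protocadherins (22), GABA receptors (4), ionotropic glutamate receptors (10), FGF ligands (9), BMP and GDF ligands (11) and the X chromosome (58.5%). With 1 TPM required in every library 74 of 76 kept, and the germline list had 1 and the type 2 taste receptors 2. By TPM in place of counts, nuclear coding genes took 78.2%, mitochondrial coding genes 16.1% and long noncoding RNA 1.66%, the top 100 genes held 30.4%, and 596 genes held 50%. Without mitochondrial genes the top 100 held 14.2% of counts and 1258 genes held 50%. The biological CV was 12.8% with DESeq2 size factors, 13.4% with library totals, 13.2% with no filter and 12.6% for coding genes only. The cause of these differences was not tested. No paired analysis was possible because no groups were compared. Below about 30 reads counting error made up most of the spread, so levels under 1 TPM are imprecise.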
